A study of Homo sapiens with 11 samples.

Results

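MYC and the genes of the nucleolus and of ribosome biogenesis were followed through an RNA interference experiment in the 769-P line, which derives from a human clear-cell carcinoma of the kidney. The members were taken by symbol from a list: 42 of the 33080 genes in the deposited tables matched, and all 42 were measured in every library. They comprised MYC, 6 genes of RNA polymerase I transcription, 7 protein genes of the small nucleolar ribonucleoprotein particles, 11 of small subunit maturation, 12 of large subunit maturation and 5 other nucleolar proteins. The last 4 groups, 35 genes, are called the rRNA processing and nucleolar members, and they were kept apart from the RNA polymerase I genes throughout.

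The study sequenced total RNA in 11 libraries: 4 with a control siRNA (siSCR, genotype label wild-type), 3 with a first siRNA against the aldo-keto reductase gene AKR1A1 (si1) and 4 with another (si2). The siRNA libraries carry the genotype label AKR1A1-/-, although their protocol describes a transient transfection. All groups received RNAiMAX, a lipid reagent, and siRNA labelled at 20 uM for 48 h. Nothing in the labels tells if replicates came from different cultures. The p-values thus reflect the scatter among these libraries alone, and that scatter may be technical.

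MYC is a transcription factor that, with its partner MAX, binds E-box sequences and is known for raising the transcription of genes that make ribosomes. Ribosomes are built in the nucleolus: RNA polymerase I transcribes the precursor ribosomal RNA, guide particles modify it, and large sets of processing factors fold and cleave it into the small and the large subunit. MYC and ribosome production are commonly raised in dividing tumour cells, and the nucleolus responds to stress through proteins such as nucleophosmin.

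The E-box is a sequence that MYC can bind, so its windows in the members are shown first. Binding was not measured here. RefSeq promoters (GRCh38.p14, 250 bases before to 50 after each start site) were found for 34 of the 42 members. MYC, NOP58, NOLC1, RRP12, BOP1, RRP1B, RRS1 and RPS19BP1 had no entry. The letters CACGTG, which read the same on both strands, were in a promoter of 16 of these 34 genes (47.1%). Of the genes that were tested for expression and had a promoter, 13.0% held the same letters, and of all genes with a promoter 8.77%. Counted by promoter, since a gene can have several, they were in 38.6% of those of the members and in 7.26% of all. The windows below are a selection from these 16 members. Each has 30 bases, with the motif in capitals and 5′ to 3′ on the gene's strand. Other members discussed later, among them PES1, MYBBP1A, RCL1, BYSL and UTP20, also hold an E-box and are not shown. CD3EAP (gene symbol POLR1G in RefSeq), FBL, NOL6 and GNL3 are members called lower with si2, the last 3 only without the control library siSCR 1. LYAR was called lower with si1 without that library. GAR1, WDR43 and EBNA1BP2 were not called with either siRNA, with or without it.
CD3EAP, chr19:45406620-45406649, plus strand: cccctttggatcCACGTGgtctgcaacctg
FBL, chr19:39846356-39846385, minus strand: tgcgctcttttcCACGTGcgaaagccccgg
NOL6, chr9:33473894-33473923, minus strand: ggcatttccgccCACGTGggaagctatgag
GNL3, chr3:52686026-52686055, plus strand: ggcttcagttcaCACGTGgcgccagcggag
LYAR, chr4:4290068-4290097, minus strand: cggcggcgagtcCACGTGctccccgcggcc
GAR1, chr4:109815781-109815810, plus strand: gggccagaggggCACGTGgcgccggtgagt
WDR43, chr2:28894658-28894687, plus strand: cgcacggacgaaCACGTGgctgcagcgggg
EBNA1BP2, chr1:43172790-43172819, minus strand: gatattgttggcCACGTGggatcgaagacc

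The motif began 12 bases before the start site in CD3EAP, 64 before it in LYAR and 237 before it in EBNA1BP2, and after the start site in FBL, NOL6, GNL3, GAR1 and WDR43. A sequence match is a description and not a binding site. Of the other motifs searched on both strands, CCGGAAG, the core bound by ETS factors, was in 35.3% of the matched members, 24.6% of the tested genes with a promoter and 12.2% of all genes with one. CCAAT was in 41.2%, 44.0% and 39.7%. Counted over all promoters, CCGGAAG was in 10.3% and CCAAT in 34.6%. WDR74, which carries no CACGTG, holds the CCGGAAG core with 8 bases between it and a start site. Its window is shown because this member was lower with si2.
WDR74, chr11:62839591-62839620, minus strand: gacgcacacgctgcgCCGGAAGtgtgaact

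The libraries held 2108546 to 5939514 reads on genes. Values are normalized counts, the read count of a gene divided by the size factor of its library, and tests were run with limma on log2(normalized count + 1), so a fold change understates the change of low genes. Called means a p under 0.05 after Benjamini-Hochberg adjustment over all genes tested. AKR1A1 checked the labels: its normalized counts were 390.4, 256, 200.1 and 242 in siSCR 1 to 4, 81.7, 23.6 and 45.1 in si1 1 to 3, and 56.6, 32.1, 48.3 and 46.1 in si2 1 to 4, so every siRNA library lay below every control library. The AKR1A1 log2 fold change was −2.54 with si1 (limma adjusted p = 0.0357) and −2.53 with si2 (limma adjusted p = 0.00218). Among fits that left out 1 library, AKR1A1 was called in 1 of 7 with si1 and in 8 of 8 with si2. The renal markers PAX8 (711 to 1149), PAX2, KRT8, KRT18, VIM and CDH2 were present in all 11 libraries. CA9, a marker of the clear-cell type, was listed at 0 in all 11. Of 8 markers of fibroblasts, leukocytes and endothelium, COL1A2, CD3E, PECAM1 and CDH5 were at 0 in all libraries. COL1A1, a collagen chain, was present in all 11 at 12.3 to 58.4 normalized counts, and CD68, a macrophage marker, in all 11 at 33.1 to 112. PDGFRB reached 9.17 and was at 0 in 2 libraries, and PTPRC reached 1.77 and was at 0 in 7. Summed over the 8, siSCR libraries held 82.5 to 153 normalized counts, si1 libraries 52.6 to 98.4 and si2 libraries 72.5 to 147. The groups overlapped, and the part of these markers in the members' differences was not tested.

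A pair of libraries stood apart. In siSCR 1 the mitochondrial genes took 12.1% of reads and in siSCR 2 to 4 they took 3.46 to 4.46%. In si1 1 they took 11.1%, near the share of siSCR 1. In si1 2 and si1 3 they took 6.57 and 7.82%, and in si2 4.59 to 5.12%. In si1 2, the number of genes expected to have a read at 2108546 reads was 11609. The other libraries had 13080 to 13617. Among the 3 si1 libraries, si1 2 was the lowest for 14 and the highest for 22 of the 42 members. Results are therefore given with and without these libraries. In bulk RNA, fewer cells of a kind and less RNA per cell cannot be told apart.

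The members spanned a wide range of levels. Per kilobase of exon, the siSCR mean was highest for FBL (1070 normalized counts per kilobase), the methyltransferase of the box C/D particles, followed by NPM1 (880) and NCL (611), the abundant nucleolar histone and RNA chaperones. DKC1 stood at 320.3 and UBTF at 90.5. MYC was the lowest of the 42 at 7.44, behind MYBBP1A (8.21), UTP15 (8.27) and POLR1A (8.29), the largest RNA polymerase I subunit.

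Across the experiment, no member was called higher with either siRNA, 3 were called lower with si2 and none was called with si1. The fall with si2 was large for 2 genes, CD3EAP and RPS19BP1, and small for WDR74. The comparisons share the siSCR libraries, so si1 and si2 are given side by side and not as independent tests. With si1 against siSCR, 0 of 42 members were called by limma (1.72% of all genes tested were), 4 had an unadjusted p under 0.05 (CD3EAP, RRN3, TSR1 and RRP1B), as had 23.9% of all genes tested, and the smallest adjusted p was 0.138. The count was also 0 with voom on the recovered reads (5.53% of all genes tested were called). With si2 against siSCR, 3 of 42 (7.14%) were called lower, against 1.19% of all genes, and 14 had an unadjusted p under 0.05, as had 19.6% of all genes tested.

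**Figure D1:**
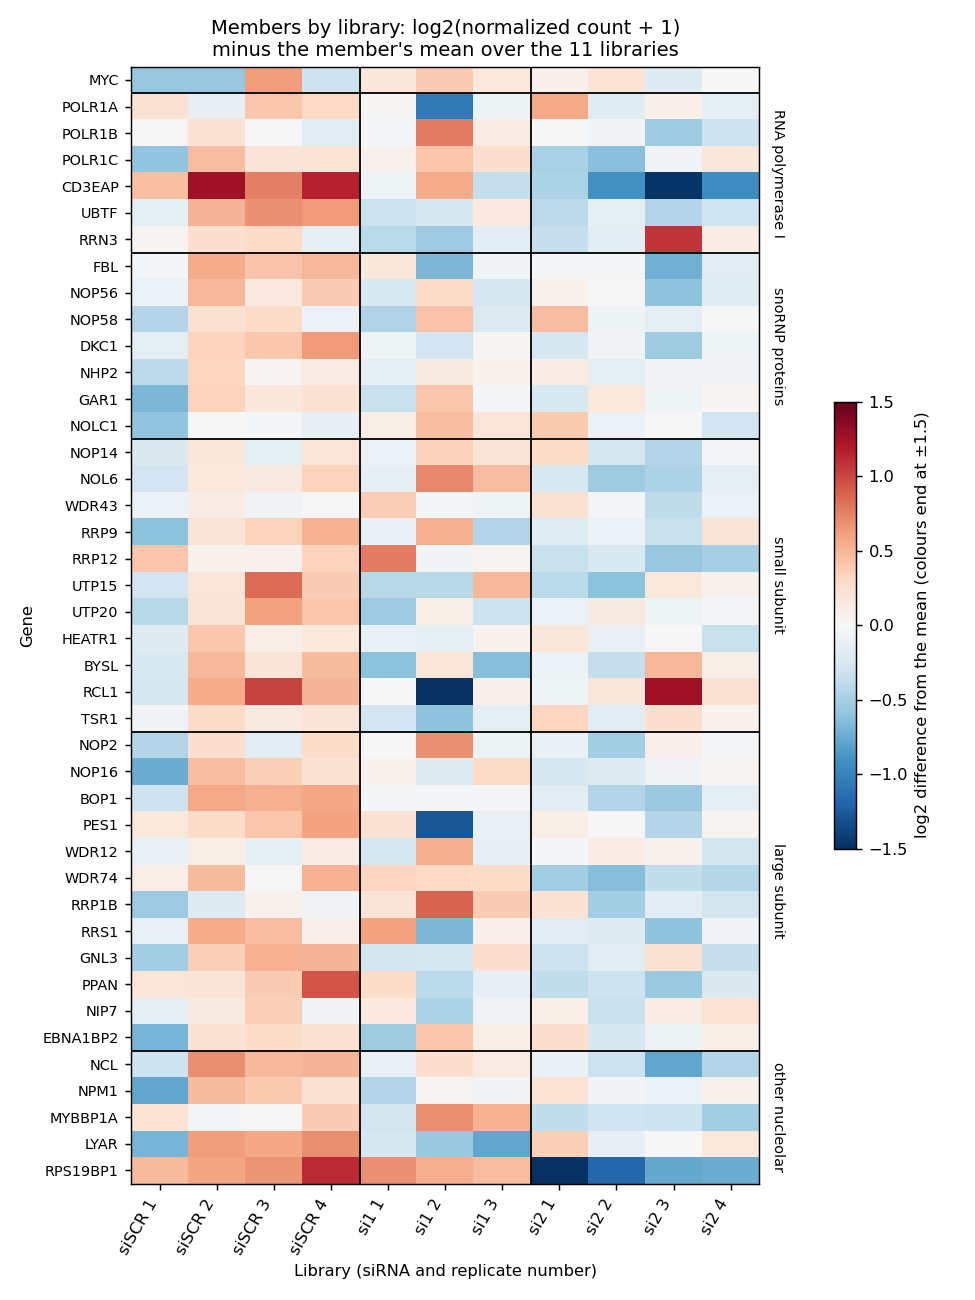
Log2(normalized count + 1) of each of the 42 members (rows, grouped by role) in each of the 11 libraries (columns), minus the member's mean over all libraries. The siSCR 1 column is bluer than siSCR 2 to 4 in most rows, and CD3EAP and RPS19BP1 are the darkest blue in the si2 columns.

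The direction of the members was mostly downward with si2. The fold change was below 0 for 38 of 42 members (90.5%) with a median of −0.21 on the log2 scale, where the median of all genes tested was −0.01 and 50.9% were below 0. With si1, 27 of 42 were below 0, the median was −0.19 and the all-gene median −0.03. Leaving out siSCR 1, which had the lowest level of the 4 controls for 35 of 42 members (83.3%, against 36.4% of all tested genes) and the highest for only RRP12, moved the medians to −0.44 with si2 and −0.33 with si1. The siSCR 1 level of a member lay a median of −0.53 log2 units from the mean of the other controls, against 0.01 over all tested genes.

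Without siSCR 1, 12 members were called lower with si2 (28.6%, against 6.68% of all genes tested) and 3 with si1 (UBTF, LYAR and BOP1, against 6.52%). This si1 fit kept si1 1, which had a high mitochondrial share like siSCR 1. No fit left out siSCR 1 and si1 1 together. The 9 further members with si2 were UBTF, FBL, DKC1, NOL6, RRP12, BOP1, GNL3, PPAN and NCL. With siSCR 1 and si1 2 both left out, 4 members were called with si1: CD3EAP, BYSL, LYAR and UTP20 (8.38% of all genes tested were called lower), a choice of libraries made after seeing the data. The number called with si2 moved from 3 to 12 with this 1 control library, and it was 2 in each of the other 7 fits that left out 1 library. These 7 fits called 0.278 to 0.587% of all genes tested lower. CD3EAP and RPS19BP1 were called with si2 in 8 of 8 such fits.

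**Figure D2:**
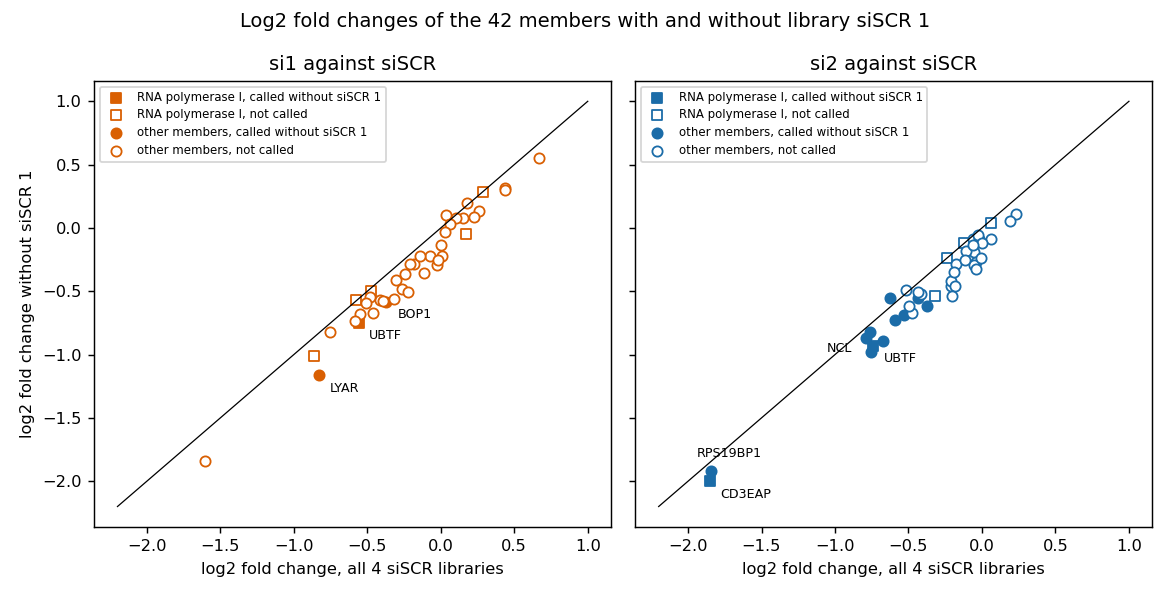
Log2 fold change of each member with all 4 siSCR libraries (horizontal) and without siSCR 1 (vertical), for si1 (left) and si2 (right); squares are RNA polymerase I genes and filled symbols passed the test without siSCR 1. Most points lie below the diagonal, and 12 are filled in the right panel and 3 in the left.

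The siSCR 1 shift was not limited to nucleolar genes. The mean centred log2 level of the 35 rRNA processing and nucleolar members was −0.25 in siSCR 1 against 0.28 to 0.34 in siSCR 2 to 4, −0.05 to 0.02 in si1 and −0.22 to −0.08 in si2. For 18 mitosis genes it was −0.75 in siSCR 1, 1.05 to 1.11 in siSCR 2 to 4, −1.82 to −0.26 in si1 and 0.0019 to 0.06 in si2. For 20 S phase genes it was −0.48 in siSCR 1 and 0.72 to 0.82 in the other controls, with −1.35 to −0.53 over si1 and 0.12 to 0.16 over si2. For 18 p53 targets it was 0.46 in siSCR 1 and −0.66 to −0.61 in the others, with 0.71 to 0.89 over si1 and −0.27 to −0.17 over si2. On all 3 lists siSCR 1 thus lay nearer to the si1 libraries than the other controls did. Their part in the members' differences was not tested.

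**Figure D3:**
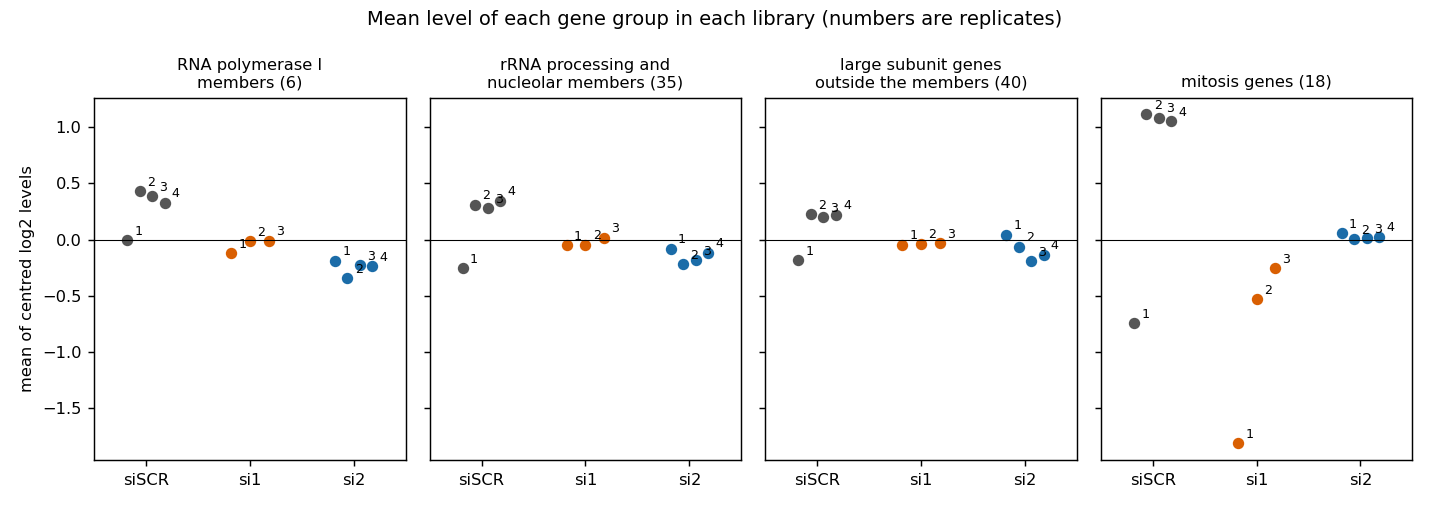
Mean centred log2 level (vertical) of the RNA polymerase I members, the rRNA processing and nucleolar members, the further large subunit genes and the mitosis genes in each library (points labelled by replicate). In every group siSCR 1 lies below the other siSCR libraries, and the mitosis genes of si1 1 are lowest of all.

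MYC, the first member, gave 16.0, 16.0, 37.9 and 19.4 normalized counts in siSCR 1 to 4, 27.2, 31.9 and 27.0 in si1 and 25.6, 28.1, 21.0 and 24.4 in si2. The siSCR 3 library was highest of all 11, and the siSCR range spanned the other groups. The log2 fold change was 0.44 with si1 (95% interval −0.29 to 1.16, limma adjusted p = 0.412) and 0.23 with si2 (−0.36 to 0.82, adjusted p = 0.690). With 1 library left out it ran from 0.32 to 0.72 with si1 and from 0.11 to 0.51 with si2, and 0 of these fits called MYC. The gene had 15 to 47 reads per library. Changes within these intervals could not be told from no change, and the part of depth in this was not tested.

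Among the RNA polymerase I genes, 1 of 6 was called with si2, lower, and 0 with si1. Of all genes tested, 1.19% were called lower with si2 and 1.72% were called with si1. In 4 of these 6 genes the fold change was below 0 with si1, and in 5 of 6 with si2. Their median log2 fold change was −0.52 with si1 and −0.28 with si2, where the 35 rRNA processing and nucleolar members had −0.18 and −0.20 with 0 and 2 called. The order of these medians turned with the libraries. Without siSCR 1 the si2 medians were −0.39 for the polymerase genes and −0.45 for the 35 members. Of these, 2 and 10 were called lower, in a fit that called 6.68% of all genes tested lower. The si1 medians without siSCR 1 were −0.53 and −0.30. Without si1 2 the si1 medians were −0.31 and −0.23, and without both libraries −0.32 and −0.41. Over all fits that left out 1 library, the median of the 35 members ran from −0.30 to −0.09 with si1 and, down to the −0.45 above, from −0.11 with si2. The difference between the groups of genes was not tested. The mean centred log2 level of the polymerase genes was 0.33 to 0.43 in siSCR 2 to 4 and −0.0046 in siSCR 1. It ranged from −0.12 to −0.0117 over the si1 libraries and from −0.34 to −0.19 over the si2 libraries. Without CD3EAP it was 0.17 to 0.31, −0.10, −0.13 to 0.06 and −0.23 to 0.02 in the same order, so with CD3EAP left out si2 3 lay above siSCR 1.

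CD3EAP (ENSG00000117877, chr19:45406209-45410766, plus strand), a subunit of RNA polymerase I, gave 230.0, 405, 284 and 373 in siSCR 1 to 4, 159.8, 247 and 131 in si1, and 120.3, 89.1, 59.9 and 87.6 in si2. All si2 libraries were below all siSCR and all si1 libraries, and si1 2 overlapped the lowest control. With si2 it fell by 1.85 on the log2 scale (SE 0.25, limma adjusted p = 0.0067); with si1 the log2 fold change was −0.86 (SE 0.29, adjusted p = 0.138), and in si2 against si1 −0.99 (adjusted p = 0.0865). The gene shares 43.5% of its exon bases with ERCC1 on the opposite strand (GENCODE 29), and strand handling is not given in the sources used here, so reads of the 2 genes may be mixed; ERCC1 itself had log2 fold changes of −0.07 with si1 and −0.0045 with si2.

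UBTF, an architectural factor bound along ribosomal DNA, gave 416, 656, 743 and 717 in siSCR, 369.7, 389 and 511 in si1 and 351, 417, 339 and 376 in si2. Only siSCR 1 among the controls reached the si2 range. The log2 fold change with si2 was −0.74 (SE 0.20, limma adjusted p = 0.0838), and without siSCR 1 −0.93 (adjusted p = 0.00486). With si1 it was −0.56 (adjusted p = 0.232) and without siSCR 1 −0.75 (adjusted p = 0.0486).

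The remaining 4 had no call. POLR1A, the largest subunit, gave 112, 88.7, 128 and 119 in siSCR 1 to 4, 97.5, 45.8 and 91.7 in si1 and 143, 85.1, 102 and 87.1 in si2. Its lowest value was in si1 2, and the groups overlapped. POLR1B, the partner catalytic subunit, gave 63.0, 73.7, 62.8 and 56.0 in siSCR, 62.3, 109.6 and 69.1 in si1 and 63.7, 61.0, 43.1 and 50.3 in si2. Here si1 2 was the highest library, and the groups overlapped. POLR1C, a subunit shared with RNA polymerase III, gave 45.3, 95.1, 78.5 and 79.4 in siSCR, 72.0, 91.6 and 81.1 in si1 and 48.6, 44.1, 66.2 and 77.2 in si2. The siSCR 1 value lay among the low si2 values. RRN3, which brings the polymerase to its promoter, gave 67.2, 78.0, 79.8 and 59.1 in siSCR, 49.2, 44.4 and 58.6 in si1 and 51.3, 58.6, 139 and 70.5 in si2. Every si1 library was below every control (log2 fold change −0.48, limma adjusted p = 0.191), and si2 3 was the highest library.

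**Figure D4:**
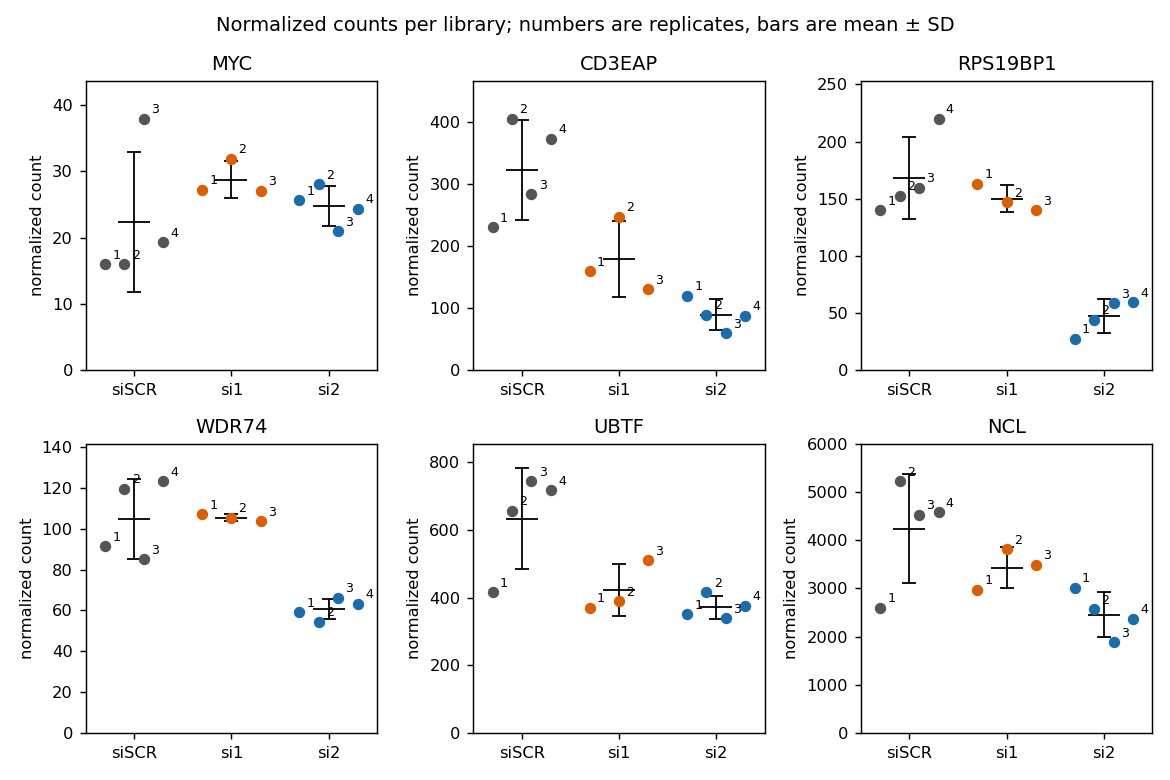
Normalized counts of 6 members in each library (points labelled by replicate; bars are mean ± SD). CD3EAP, RPS19BP1 and WDR74 lie lower in all 4 si2 libraries than in any siSCR library, whereas MYC, UBTF and NCL overlap.

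Of the particle proteins, FBL gave 1755, 2622, 2407 and 2517 in siSCR, 2007, 1114 and 1727 in si1 and 1757, 1754, 1083 and 1602 in si2. The siSCR 1 value lay among the si2 values. The log2 fold changes were −0.60 with si2 (limma adjusted p = 0.156; 0.0393 without siSCR 1) and −0.55 with si1. DKC1, the pseudouridine synthase of the box H/ACA particles, gave 961, 1349, 1414 and 1661 in siSCR, 1021, 873 and 1092 in si1 and 898, 1027, 739 and 1021 in si2. Here too siSCR 1 lay among the siRNA libraries, and the log2 fold change with si2 was −0.53 (limma adjusted p = 0.183, and 0.0294 without siSCR 1). NOLC1, a nucleolar chaperone of these particles, was at 217, 328, 322 and 300.4 in siSCR, 351, 452 and 373 in si1 and 431, 309, 328 and 268 in si2. The si1 libraries did not overlap the controls and the si2 libraries did. Its log2 fold change was 0.43 with si1 (limma adjusted p = 0.254) and 0.19 with si2. It was one of 2 members that lay above all controls with si1 (10.8% of all genes did), and 2 lay below (10.9% of genes). NOP56 and NOP58 form the scaffold of the box C/D particles, and NHP2 and GAR1 are core proteins of the box H/ACA particles. These 4 had log2 fold changes of −0.30 to 0.01 with si1 and −0.42 to 0.06 with si2, none called. In all 7 genes of the group siSCR 1 was the lowest control. The group means of NHP2 lay close together, at 667 ± 131 (SD, n = 4) in siSCR, 659 ± 61.4 (n = 3) in si1 and 634 ± 48.4 (n = 4) in si2. Its siSCR libraries ranged from 494 to 808, and 27.4% of its exon bases are shared with RMND5B on the other strand.

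Among the 11 small subunit genes, all had fold changes below 0 with si2, from −0.62 to −0.02, and 7 with si1. RRP12, a factor of late pre-40S maturation, gave 163, 126, 127 and 154 in siSCR, 208, 118 and 125 in si1 and 96.4, 104, 81.9 and 85.5 in si2. Every si2 library was below every control. On the log2 scale the difference was −0.62 (SE 0.16, limma adjusted p = 0.0669; 0.0427 without siSCR 1). NOL6, of the U3 processome, was 61.3, 83.3, 82.4 and 94.7 in siSCR, 67.6, 124 and 104 in si1 and 63.7, 51.4, 53.6 and 67.4 in si2, with log2 fold changes of −0.43 with si2 and 0.26 with si1. TSR1, a late small subunit factor, was below all controls in si1 (213, 171 and 237 against 252 to 315; log2 fold change −0.48, limma adjusted p = 0.179). RCL1, also of the processome, gave 48.7, 86.5, 119 and 83.5 in siSCR, 58.8, 4.16 and 61.6 in si1 and 55.7, 65.8, 143 and 68.4 in si2. The value of si1 2 came from 3 reads, and the log2 fold change of −1.60 with si1 became −0.41 without it.

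The other small subunit genes gave no call with all libraries. BYSL, an adaptor of the small subunit precursor, gave 62.1, 103, 83.7 and 102 in siSCR, 47.4, 83.3 and 46.6 in si1 and 69.0, 57.0, 104 and 77.7 in si2. The si1 1 and si1 3 libraries were below all controls and si1 2 was not. Its log2 fold change with si1 was −0.59 (limma adjusted p = 0.251). UTP20, a large scaffold of the processome, gave 122, 187, 251 and 218 in siSCR, 112, 173 and 131 in si1 and 153, 179.8, 156 and 160.2 in si2. Its si1 values overlapped siSCR 1 alone, and the log2 fold change was −0.46 (limma adjusted p = 0.354). HEATR1, UTP15, WDR43 and NOP14 are further processome proteins and RRP9 is a U3 particle protein. Their log2 fold changes ran from −0.39 for UTP15 to 0.15 for NOP14 with si1, and from −0.48 for UTP15 to −0.06 for WDR43 with si2.

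WDR74 (ENSG00000133316, chr11:62832342-62841809, minus strand), a nucleolar protein of large subunit maturation, gave 91.5, 119.7, 85.0 and 123 in siSCR, 107, 105 and 104 in si1 and 59.3, 54.6, 66.2 and 63.2 in si2. All si2 libraries were below all others. It fell by 0.76 on the log2 scale with si2 (SE 0.17, limma adjusted p = 0.0443), and of the 8 fits that left out 1 library only the one without siSCR 1 kept the call (adjusted p from 0.016 to 0.143). The difference of si2 from si1 was −0.79 on the log2 scale (SE 0.16, limma adjusted p = 0.0295). PES1 gave 340.0, 369.6, 406 and 464 in siSCR, 354, 125 and 283 in si1 and 327, 304, 225 and 314 in si2, and PPAN 68.8, 69.4, 79.8 and 118, then 73.8, 45.8 and 55.6, then 46.9, 49.0, 41.0 and 52.4. Both lay below all controls in si2, and neither was called (limma adjusted p = 0.211 and 0.0632). PPAN shares 56.0% of its exon bases with the read-through gene PPAN-P2RY11, which is listed at 0 in all 11 libraries. The read-through gene in turn shares 54.4% of its exon bases with PPAN. Reads in shared bases may be counted for the other gene or for none. The 0 thus does not show that read-through RNA was absent. RRP1B, a nucleolar protein of the Nop52 family, gave 133, 169.9, 204 and 187 in siSCR, 223, 361 and 254 in si1 and 227, 136, 173 and 161 in si2. It was above all controls in si1, with a log2 fold change of 0.67 (limma adjusted p = 0.152), and overlapped them in si2, with one of −0.0015.

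BOP1, which forms a complex with PES1 and WDR12, gave 249.3, 459, 447 and 460.3 in siSCR, 302, 305 and 302 in si1 and 275, 227, 209 and 278 in si2. The siSCR 1 library lay inside the si2 range, 3 controls lay above every siRNA library, and the si1 libraries had an SD of only 1.86 (n = 3). The log2 fold change was −0.67 with si2 (limma adjusted p = 0.141, and 0.00763 without siSCR 1) and −0.37 with si1 (adjusted p = 0.398, and 0.049 without siSCR 1). WDR12, the third protein of that complex, had log2 fold changes of 0.06 with si1 and −0.03 with si2. GNL3, a nucleolar GTPase, gave 90.7, 167, 187 and 185 in siSCR, 107, 108 and 153 in si1 and 103, 116, 151 and 102 in si2. All 7 siRNA libraries lay between siSCR 1 and the other controls, and with si2 the log2 fold change of −0.37 (limma adjusted p = 0.457) became −0.62 without siSCR 1 (adjusted p = 0.0461). The other large subunit genes are the rRNA methyltransferase NOP2, NOP16, RRS1, NIP7 and EBNA1BP2. Their log2 fold changes ran from −0.24 for RRS1 to 0.22 for NOP2 with si1 and from −0.50 for RRS1 to −0.0051 for EBNA1BP2 with si2, with none called.

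Of the other nucleolar proteins, RPS19BP1 (ENSG00000187051, chr22:39529093-39532855, minus strand), which binds the small subunit protein RPS19, was 140.2, 153, 159.6 and 220.0 in siSCR, 163, 147 and 139.8 in si1 and 27.4, 44.1, 58.8 and 59.6 in si2. It was lower in every si2 library than in any other. It fell by 1.84 on the log2 scale against siSCR (SE 0.26, limma adjusted p = 0.00758) and fell by 1.70 against si1 (SE 0.28, adjusted p = 0.0172). With si1 against siSCR its log2 fold change was −0.14 (95% interval −0.62 to 0.34). NCL, nucleolin, was 2601, 5218, 4526 and 4585 in siSCR and 3009.7, 2569, 1879.8 and 2366 in si2. The si1 values of 2969, 3811 and 3492 overlapped both ranges. Its log2 fold change with si2 was −0.76 (adjusted p = 0.126; 0.0101 without siSCR 1). NPM1 was at 3368 ± 1102, 2769 ± 471 and 3114 ± 279, and processed copies of this gene exist in the genome, so part of its reads may belong elsewhere. MYBBP1A, a MYB-binding nucleolar protein, gave 52.9, 44.9, 45.8 and 60.1 in siSCR, 37.8, 74.9 and 66.1 in si1 and 35.4, 36.9, 36.8 and 31.6 in si2. It lay below all controls in si2 (log2 fold change −0.51, limma adjusted p = 0.108), whereas si1 held both lower and higher values (log2 fold change 0.18). LYAR, a nucleolar zinc finger protein, was 74.7, 188, 182 and 198 in siSCR, 102, 81.9 and 70.6 in si1 and 157, 112, 121 and 136 in si2. Its si1 libraries lay near siSCR 1 and below the other controls and all of si2. The log2 fold change was −0.83 with si1 (limma adjusted p = 0.215, and 0.0172 without siSCR 1) and −0.20 with si2 (adjusted p = 0.769).

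**Figure D5:**
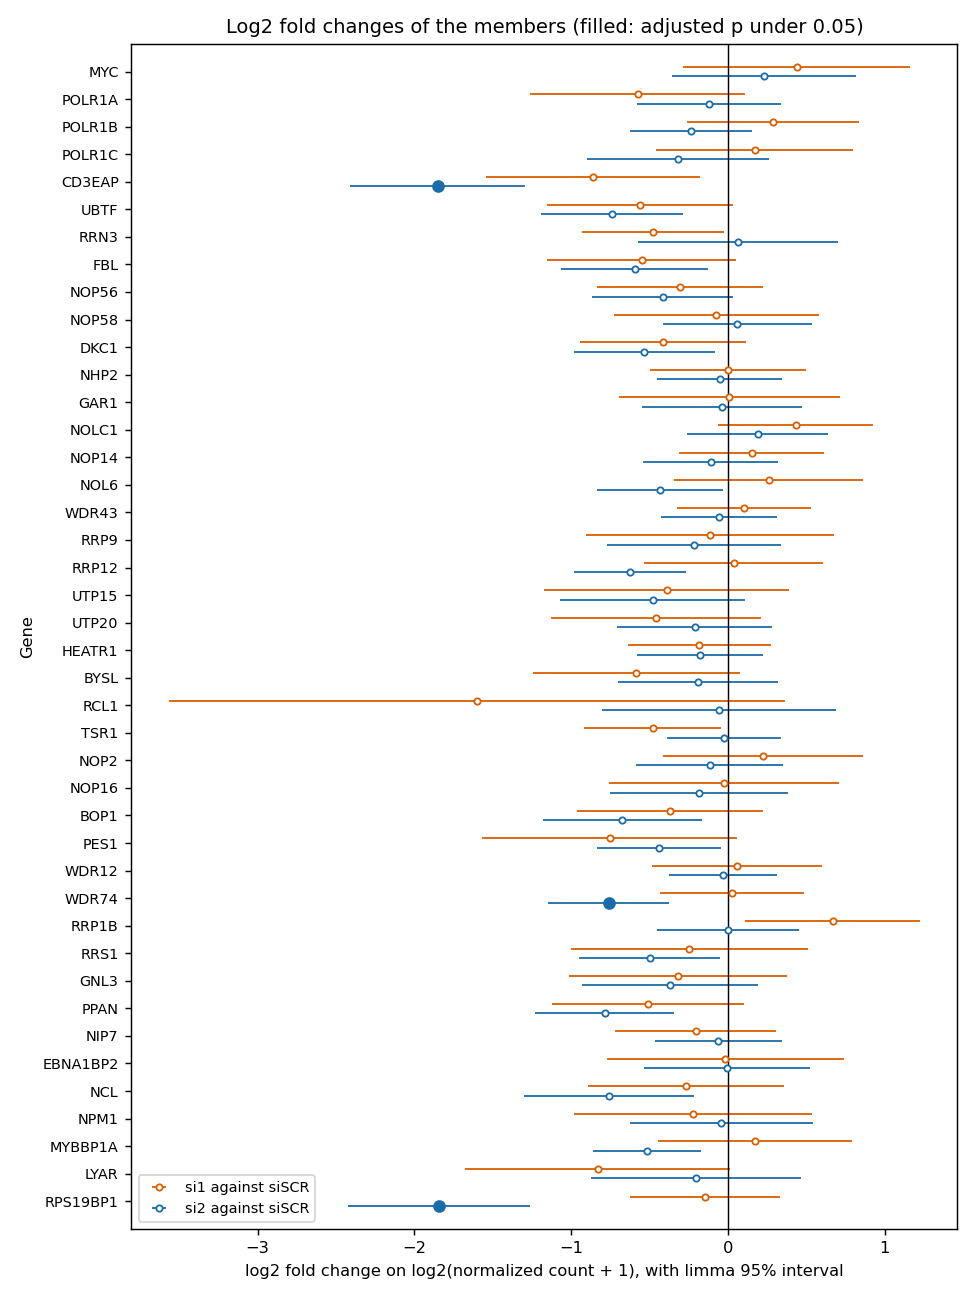
Log2 fold change of each member with its 95% limma interval for si1 (orange) and si2 (blue) against siSCR; filled symbols passed an adjusted p under 0.05. CD3EAP, WDR74 and RPS19BP1 are filled for si2, and no symbol is filled for si1.

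Between the siRNAs, 2 of 42 members were called lower in si2 than in si1, RPS19BP1 and WDR74 (3.02% of all genes were). RPS19BP1 was called in 6 of 7 fits that left out 1 library and WDR74 in 2 of 7. Neither was called with the mitochondrial read share as a covariate, a share that was higher in every si1 library than in any si2 library. In 7 members every si2 library was below every si1 library (11.6% of all genes) and in 1, LYAR, above (13.4%). Against siSCR, 7 members did not overlap in the lower direction with si2 (CD3EAP, RRP12, PES1, WDR74, PPAN, MYBBP1A and RPS19BP1; 16.7% of members against 5.50% of genes) and 0 in the higher direction (7.09%). The authors' deposited table called 1 member lower with si1, CD3EAP (3.40% of its genes with a mean count above 0). It called 8 lower with si2: BOP1, CD3EAP, NCL, PPAN, RPS19BP1, RRP12, UBTF and WDR74 (1.42% of such genes). These shares include low genes that the limma filter removed, so they are not directly comparable with the limma shares.

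The wider ribosome biogenesis genes were described for context. The further genes were 9 of RNA polymerase I, 31 or 32 of small subunit and 40 of large subunit maturation. Limma called none of them with either siRNA against siSCR. Unadjusted p was under 0.05 for 1, 5 and 3 genes with si1 (23.9% of all genes tested) and for 1, 4 and 6 with si2 (19.6%). Without siSCR 1, limma called 1, 2 and 2 of them lower with si1 (6.52% of all genes tested). With si2, 0, 1 and 4 were called lower without that library (6.68%). The median log2 fold changes of these lists with si2 and all libraries were −0.25, −0.20 and −0.20. In the RNA exosome 1 of 12 genes fell with si1, SKIV2L2 (MTREX, an exosome helicase), with a log2 fold change of −1.14 (SE 0.16, limma adjusted p = 0.0318), and in RNA polymerase III 1 of 20, POLR3GL, at −0.98 (adjusted p = 0.046). Each was called in only 1 of 7 fits that left out a library, the one without siSCR 1. Of 21 tested MYC targets outside the nucleolus, 19 had fold changes below 0 with si1 and none was called. Their median log2 fold change was −0.41, and 52.1% of all genes tested were below 0. With si2, 14 of 21 were below 0 with a median of −0.07. There 1 was called higher and 1 lower (3.12% of all genes tested were called). TFRC, the transferrin receptor, rose by 2.10 with si2 (SE 0.38, limma adjusted p = 0.0203). SRM, spermidine synthase, fell by 1.34 (SE 0.23, limma adjusted p = 0.0164). Of the 8 fits without a library, TFRC was called in 1, the one without siSCR 1 (adjusted p up to 0.0703), and SRM in 4 (up to 0.0573). For TFRC the difference of si2 from si1 was 2.59 (SE 0.28, limma adjusted p = 0.00556), called in 7 of 7 fits without a library. Of 12 RNA polymerase II genes and 10 tested MYC partners and antagonists, limma called 0 with either siRNA against siSCR; unadjusted p was under 0.05 for 1 and 0 with si1 and for 0 and 2 with si2.

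The members also host other nucleolar RNAs: 8 of 42 (19.0%), namely NOP56, NOP58, DKC1, WDR43, TSR1, GNL3, PPAN and NCL, contain annotated small nucleolar RNA genes, against 207 of 10247 tested genes (2.02%). Among the 9 members called lower with si2 without siSCR 1 that have a RefSeq promoter, 4 hold CACGTG (44.4%), and among the 25 not called 12 do (48.0%). These shares were not tested.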

How the data were processed

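Per the labels' protocols and the submitters' processing notes, the authors trimmed reads with cutadapt, inspected them with FastQC, aligned them with STAR to GRCh38, counted genes with HTSeq and normalized the counts by relative log expression with DESeq2. Versions and strand settings are not given in the sources used here. For each library the authors deposited log2 values, namely the log2 of the normalized count plus 1. Undone, all values of every library lay within 0.01 read of whole reads, whose sum was taken as the depth. Their tables further hold, per the file headers, the mean normalized signal per gene and, for each siRNA against siSCR, log2 fold changes with a raw and an adjusted p-value. These are used only where their table is named.

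The log2 values were fitted with limma 3.58.1 under R 4.3.3, with group as the only term, keeping genes that reached a normalized count of 10 in a number of libraries equal to the size of the smaller group. Adjusted p is Benjamini-Hochberg over all genes tested, two-sided, and called means under 0.05. Positions and exon lengths came from GENCODE 29 on GRCh38. Library scores are means of log2 levels centred on each gene's mean over all libraries. The value in every library is given for MYC, the RNA polymerase I genes, every member called, and the largest rise and fall of each other group in either siRNA comparison. In each wider list up to 4 called genes were named. Other members were named for where their libraries lay, after their values were seen. The members and lists were chosen with earlier results of these data known. The scripts were tested on simulated data.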

Additional observations from a re-analysis of the deposited data

Results flagged for a closer look

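In siSCR 1, 5 members lay far below the other 3 controls, with a gap that was most of the group's range. The normalized counts there were 63.8 for GAR1 (the others 115 to 129), 249.3 for BOP1 (447 to 460.3), 90.7 for GNL3 (167 to 187), 229 for EBNA1BP2 (433 to 447) and 74.7 for LYAR (182 to 198). These are 5 of 84 groups of 4 libraries checked, and chance flags about 1 in 20 groups. All 5 are in the library with the high mitochondrial read share and the low mitosis score, whose part was not tested.

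The siRNA groups differed from each other for 2 members under limma: WDR74, with a log2 fold change of −0.79 in si2 against si1, and RPS19BP1, with −1.70.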

How the results depend on the processing

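Of the 42 members, 0 were called with si1 against siSCR in all other planned settings that kept every library. Those settings called 0.00 to 5.54% of all genes tested lower. With 1 library left out, 3 were called without siSCR 1 (6.52% of all genes were called lower). In the other such fits 0 were called (0.00 to 0.0372%). Without siSCR 1 and si1 2, chosen after seeing the data, 4 were called (8.38%). With si2 against siSCR the 3 calls, all lower, became 2 without a filter (0.215% of all genes tested were called lower), 2 after upper-quartile rescaling (1.11%), 6 with limma-trend (1.72%), 6 with a minimum of 50 (2.22%), 5 with voom (1.71%) and 9 with mitochondrial read share added as a covariate (5.81%). It was 2 to 12 with 1 library left out (0.278 to 6.68%). With si2 against si1 the 2 calls became 0 with that covariate (0.412%) and 1 without a filter (0.517%). They became 3 with limma-trend (4.18%), a minimum of 50 (5.49%) or voom (5.05%), and 0 to 2 with 1 library left out (0.444 to 3.07%). The cause was not tested. CD3EAP and RPS19BP1 were called with si2 in all settings run.

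Replicate numbers were not taken to pair the samples, since the labels name no shared source and not every same-numbered pair correlated above 0.1. The limit of 0.1 was a choice, and whether libraries of the same number share a batch was not tested. Deviations from the group mean correlated at 0.0958 to 0.394 for same-numbered si1 and siSCR libraries (−0.28 to 0.115 for other numbers), −0.0317 to 0.164 for si2 and siSCR (−0.13 to 0.105) and −0.0024 to 0.0993 for si2 and si1 (−0.09 to 0.0413). The highest value, 0.394, was between si1 1 and siSCR 1, which also had the highest mitochondrial shares (11.1% and 12.1%) and the lowest mitosis levels (−1.82 and −0.75). A library correlated best with its own number in 2 of 3, 3 of 4 and 1 of 3 cases. With the replicate block, 0, 2 and 0 members were called. Those fits called 0.00%, 0.654% and 0.00% of all genes tested lower, so few calls of any gene were made.

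Signs were followed in 19 members: MYC, the RNA polymerase I genes, members called, and the largest rise and fall of each other group. Some of the other 23 changed sign as well. With 1 library left out, their si1 ranges included −0.33 to 0.11 for NOP58 and −0.19 to 0.21 for WDR12. Among the 19, every change of sign was in a member without a call in that comparison. With both libraries left out, si1 gave −0.13 for POLR1C, −0.0328 for WDR74 and −0.0484 for NOL6. With the mitochondrial covariate, RRP12 was −0.11 with si1, and in si2 against si1 FBL was 0.61, RRP12 0.0472 and PPAN 0.25. With si2, RRP1B was 0.0231 after upper-quartile rescaling and 0.00377 with voom. With 1 library left out, ranges with si1 were −0.22 to 0.19 for RRP12, −0.0154 to 0.47 for MYBBP1A, −0.0486 to 0.30 for POLR1C and −0.0674 to 0.11 for WDR74. With si2 they were −0.35 to 0.13 for RCL1, −0.14 to 0.11 for RRP1B and −0.24 to 0.23 for RRN3, and in si2 against si1 −0.29 to 0.13 for FBL and −0.13 to 0.62 for PES1. Normalized counts are relative to a library's other genes, so a change in total RNA per cell would not be seen.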
